A study of Mus musculus with 6 samples.

Results

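The genes described here are 10 regulators of the kidney and nephric lineages, *Six2*, *Cited1*, *Crym*, *Osr1*, *Pax2*, *Pax8*, *Wt1*, *Sall1*, *Lhx1* and *Eya1*. They were chosen by name and found by symbol among the 56748 identifiers of the count table, and all 10 were among the 18188 genes that passed the filter on low counts. Their levels were read in embryonic mouse ureters, since ureters dissected from the young urinary system can carry kidney tissue with them. Ureters of wildtype embryos of the NMRI strain had been taken at E12.5 and kept for 18 h as explants on membranes, with 15 mM LiCl in the medium or with water as control. Lithium blocks the kinase GSK3 and thereby stabilises beta-catenin. RNA-Seq of poly-A RNA gave 3 control and 3 LiCl samples. The sources used here do not say how many ureters made up a sample or whether the samples came from separate litters, so the p-values measure the spread between these samples, which may be technical.

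The kidney and the ureter arise from the intermediate mesoderm, in which *Osr1*, *Pax2*, *Pax8* and *Lhx1* are switched on early. The nephric duct sends out the ureteric bud, which branches in the metanephric mesenchyme and forms collecting ducts, while its unbranched stalk becomes the ureteric epithelium (UE) and is wrapped by the ureteric mesenchyme (UM). Around each bud tip lies the cap mesenchyme, a pool of nephron progenitors maintained by the homeobox factor SIX2 and marked by CITED1. WNT signals from the bud make some of these cells aggregate, switch on *Wnt4* and *Lhx1*, and form the renal vesicle, which becomes a nephron. Lithium is long known to start this step in isolated metanephric mesenchyme.

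The 6 libraries held between 28473436 and 31266945 counts, with overlapping depth of the groups. The chi-square statistic per degree of freedom between replicates of a group lay between 5.94 and 14.5, so no sample was a copy of another. Of 9 WNT readout genes, 8 rose and 1 did not pass the test. Their summed level was 346 to 382 CPM (counts scaled to library size, not to gene length) in controls and 575 to 623 CPM with LiCl, and *Notum*, a secreted WNT inhibitor, rose by 2.03 on the log2 scale (edgeR adjusted p = 3.56e-06). All 11 UM genes and all 11 UE genes on the marker lists were detected, with *Tbx18* at 368 ± 25.4 and *Krt8* at 318 ± 53.8 CPM in controls (SD, n = 3). A set of 12 skeletal muscle genes summed to 5.74 to 7.22 CPM in controls and to 35.9, 8.31 and 74.5 CPM in LiCl samples 1, 2 and 3. LiCl samples 1 and 3 thus stood apart, and the counts below are also given without both of them where they moved by over 1.5 times. In bulk samples, fewer cells of a type and less RNA per cell cannot be told apart.

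After LiCl, the nephron progenitor genes *Cited1* and *Crym* fell 2.45-fold and 2.49-fold, while *Six2*, which defines the same cells, gave overlapping values in both groups. *Wt1* and *Lhx1* rose, by smaller factors. *Pax8* and *Eya1* fell modestly, and *Osr1*, *Pax2* and *Sall1* did not pass the test. At an adjusted p under 0.05 in edgeR's quasi-likelihood test with Benjamini-Hochberg adjustment over all tested genes, 6 of the 10 genes were called, 2 higher and 4 lower, against a background of 43.5% of all tested genes called. In the single directions the background was 21.1% higher and 22.4% lower. A log2 fold change below -1 as well was reached by 2 genes, *Cited1* and *Crym*, where 4.59% of all genes reached it and 7.33% were beyond 1 in either direction. None (0) of the 10 passed a log2 fold change above 1, where 2.74% of all genes did. With DESeq2 that count was also 0, and 2 genes were higher at an unadjusted p under 0.05 in edgeR. The control and LiCl values did not overlap in 6 of the 10 genes, which is close to the 54.2% found over all genes. The median log2 fold change was -0.11 over the 10 genes and -0.01 over all genes. The smaller changes depended on single libraries: the count of genes that rose was 1 without control sample 1, control sample 3, LiCl sample 1 or LiCl sample 2, and the count that fell was 2 without LiCl sample 3. Without LiCl samples 1 and 3 together, 1 gene rose, 2 fell, and 1 fell past the fold minimum.

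**Figure D1:**
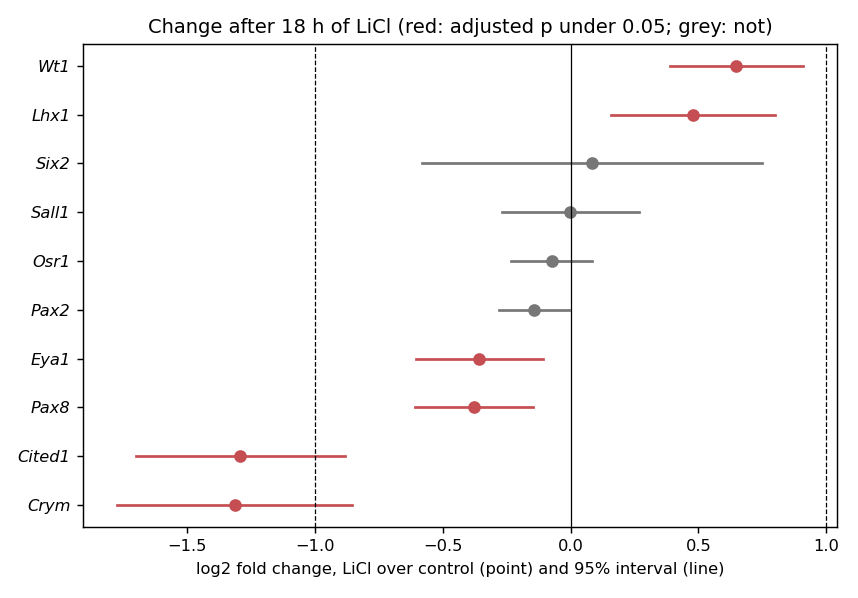
Log2 fold change of LiCl over control (x axis) for each of the 10 genes (y axis), with points for the estimate, lines for the 95% interval, red for an adjusted p under 0.05 and dashed lines at 1 and -1. *Cited1* (-1.29) and *Crym* (-1.31) are the 2 genes whose estimates lie beyond a dashed line.

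Scaled for gene length, the levels of the 10 genes in controls spanned from *Osr1*, at 22.3 ± 0.600 FPKM (fragment counts divided by gene length and library size; SD, n = 3), down to *Lhx1*, at 0.639 ± 0.0367. *Pax2* came next after *Osr1*, at 13.7 ± 0.943 FPKM. *Eya1* (5.18 ± 0.626 FPKM), *Cited1* (4.82 ± 0.851 FPKM) and *Sall1* (3.89 ± 0.396 FPKM) followed, and each of these levels overlapped with its neighbour in this order. *Crym* (2.44 ± 0.136 FPKM), *Wt1* (2.44 ± 0.308 FPKM) and *Pax8* (2.31 ± 0.216 FPKM) formed another group in which neighbours overlapped, and so did *Six2* (0.764 ± 0.327 FPKM) and *Lhx1* at the bottom. The steps from *Osr1* to *Pax2*, from *Pax2* to *Eya1*, from *Sall1* to *Crym* and from *Pax8* to *Six2* were free of overlap. *Six2*, which is abundant in cap mesenchyme, was therefore among the lowest of the set in these explants. With LiCl, *Osr1* and *Pax2* again came first, without overlap, and *Eya1*, *Sall1* and *Wt1* followed with values that overlapped between neighbours. *Cited1*, at 2.00 ± 0.420 FPKM, lay below every value of these genes and overlapped with *Pax8*. *Crym* (0.989 ± 0.336 FPKM), *Lhx1* (0.902 ± 0.0315 FPKM) and *Six2* (0.822 ± 0.107 FPKM) came last, and their values overlapped as well.

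**Figure D2:**
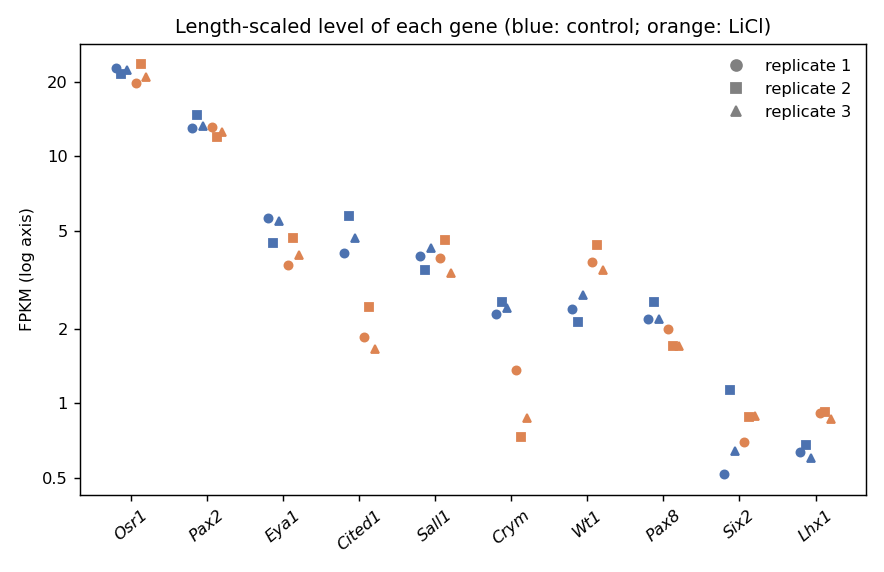
FPKM on a log axis for the 10 genes, ordered by their control mean, with blue for control, orange for LiCl and a marker shape for each replicate number. *Osr1* lies near 20 FPKM in every sample, and *Six2* and *Lhx1* lie near or below 1 FPKM.

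Among the genes of the nephron progenitors, SIX2 is the homeobox factor that keeps these cells undifferentiated. *Six2* had 1.11, 2.42 and 1.37 CPM in control samples 1, 2 and 3, and 1.48, 1.86 and 1.88 CPM in LiCl samples 1, 2 and 3. Control sample 2 was the highest of all, control sample 1 the lowest, and the groups overlapped. The log2 fold change was 0.08 (95% interval -0.58 to 0.75, edgeR adjusted p = 0.84), and without control sample 2 it was 0.49 (edgeR adjusted p = 0.15). The counts behind these values were 32, 75 and 42 in controls and 46, 52 and 53 with LiCl. The spread of the controls, a coefficient of variation of 42.2%, was above the 14.2% that counting alone gives, while that of the LiCl samples (13.0%) was near their counting error (14.1%).

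CITED1 is a coactivator without a DNA-binding domain that marks the least induced cells of the cap. *Cited1* had 7.23, 10.1 and 8.29 CPM in controls and 3.25, 4.33 and 2.91 CPM with LiCl. The sample with the most *Cited1* among the LiCl explants, sample 2, was well below the lowest control, sample 1. The mean dropped from 8.55 ± 1.46 to 3.50 ± 0.743 CPM (SD, n = 3 each), a 2.45-fold lower level (log2 fold change -1.29 ± 0.181 SE, edgeR adjusted p = 4.77e-04). The interval of this change, -1.70 to -0.88, lay wholly below that of *Six2*. Leaving out each sample in turn gave log2 fold changes from -1.47 to -1.15, and without LiCl samples 1 and 3 the value was -0.97 (edgeR adjusted p = 0.017), which no longer passed the fold minimum.

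CRYM, or mu-crystallin, is a protein that binds thyroid hormone in the cytoplasm and is used as a marker of the cap mesenchyme rather than as a DNA-binding factor. *Crym* had 7.96, 8.79 and 8.35 CPM in controls and 4.63, 2.47 and 2.94 CPM with LiCl. The controls were tightly grouped, with a coefficient of variation of 4.95%, and all LiCl samples were lower, with sample 1 standing above the other two. The mean went from 8.37 ± 0.415 to 3.35 ± 1.14 CPM, 2.49-fold lower (log2 fold change -1.31 ± 0.204 SE, 95% interval -1.77 to -0.85, edgeR adjusted p = 8.35e-04). The spread of the LiCl samples, 34.0%, exceeded their counting error of 10.1%. *Cited1* and *Crym* had almost the same fold change, but their order within the LiCl group differed: *Cited1* was highest in sample 2, where *Crym* was lowest. Without LiCl samples 1 and 3, the value of *Crym* was -1.75 (edgeR adjusted p = 5.37e-04).

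Of the 6 genes for which RefSeq promoter entries were found (12 entries, GRCm38.p6), *Cited1* is the one that passed the fold minimum, and its most distal entry is therefore shown. The 250 bases before the start, at chrX:102252182-102252431 on the minus strand, are given 5′ to 3′ with the letters TATAAA in capitals, which begin 13 bases before the start:
Cited1: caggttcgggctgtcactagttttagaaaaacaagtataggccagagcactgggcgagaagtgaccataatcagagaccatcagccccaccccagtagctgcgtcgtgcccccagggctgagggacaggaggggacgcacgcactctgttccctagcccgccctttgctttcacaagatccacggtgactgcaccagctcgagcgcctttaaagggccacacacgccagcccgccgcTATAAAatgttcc
The letters TATAAA on the strand of the gene were present in 7.59% of 32851 promoter windows of this length. The core letters of sites for TCF and LEF factors, CTTTGA or CTTTGT on either strand, were present in 27.6% of the windows and in none of the 3 *Cited1* entries. A match is only a match of letters, and its absence is limited to this window.

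*Osr1* and *Eya1* act early in the metanephric mesenchyme. OSR1 is a zinc finger factor of the intermediate mesoderm and of nephron and interstitial precursors. *Osr1* had 48.1, 45.0 and 46.9 CPM in controls and 40.9, 48.8 and 43.4 CPM with LiCl. LiCl sample 2 was the highest of all 6 samples and LiCl sample 1 the lowest, so that the LiCl values enclosed the controls. The log2 fold change of -0.07 had an interval from -0.23 to 0.08 (edgeR adjusted p = 0.42).

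EYA1 is a phosphatase and coactivator that partners homeobox factors and is needed for *Gdnf*, the signal that draws out the ureteric bud. *Eya1* had 44.6, 35.0 and 43.1 CPM in controls and 28.5, 36.5 and 31.0 CPM with LiCl. Control sample 2 was below LiCl sample 2, so the groups overlapped by this pair. The mean was 40.9 ± 5.15 CPM in controls and 32.0 ± 4.10 CPM with LiCl, and the log2 fold change was -0.36 ± 0.111 (SE; edgeR adjusted p = 0.027). This call was lost in edgeR without control sample 1 (adjusted p = 0.089), control sample 3 (0.093), LiCl sample 1 (0.086) or LiCl sample 3 (0.086). Without LiCl samples 1 and 3 together the log2 fold change was -0.16 (edgeR adjusted p = 0.44). *Gdnf* itself, at 1.15 ± 0.482 CPM in controls, was 1.48 ± 0.368 CPM with LiCl and did not pass the test (edgeR adjusted p = 0.41).

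PAX2, PAX8 and LHX1 are DNA-binding factors of the nephric duct, the ureteric bud and the renal vesicle, and PAX2 and PAX8 are closely related paired-box proteins that can stand in for each other in the early duct. *Pax2* had 71.6, 80.3 and 72.8 CPM in controls and 71.0, 64.8 and 67.5 CPM with LiCl. The groups were just apart, by the gap between 71.0 and 71.6 CPM, but the change was small: the log2 fold change was -0.14, with an interval from -0.28 to -0.01 (edgeR adjusted p = 0.082). *Pax2* is the one gene of the 10 that was past an unadjusted p of 0.05 in edgeR and not past the adjusted threshold.

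*Pax8* had 13.5, 15.6 and 13.4 CPM in controls and 12.1, 10.4 and 10.3 CPM with LiCl. All LiCl samples were below all controls, with control sample 2 and LiCl sample 1 the highest of their groups. The mean was 14.2 ± 1.25 CPM against 10.9 ± 1.00 CPM, 1.30-fold lower (log2 fold change -0.38 ± 0.103 SE, edgeR adjusted p = 0.016). The adjusted p in edgeR was 0.058 without control sample 2, 0.064 without LiCl sample 3 and 0.058 without LiCl samples 1 and 3 together. The intervals of *Pax8* (-0.61 to -0.14) and *Pax2* overlapped.

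LHX1 is a LIM homeobox factor of the nephric duct and one of the first factors of the renal vesicle. *Lhx1* had 2.64, 2.77 and 2.48 CPM in controls and 3.73, 3.76 and 3.51 CPM with LiCl. Every LiCl sample was above every control, and the spread within each group (5.52% and 3.70%) was below the counting error (11.2% and 9.68%). The mean rose 1.39-fold, from 2.63 ± 0.145 to 3.67 ± 0.136 CPM (log2 fold change 0.48 ± 0.142 SE, 95% interval 0.16 to 0.80, edgeR adjusted p = 0.022). The adjusted p in edgeR was 0.052 without control sample 1, 0.072 without control sample 3, 0.062 without LiCl sample 1, 0.060 without LiCl sample 2 and 0.15 without LiCl samples 1 and 3, while the log2 fold change remained between 0.44 and 0.52. An antisense gene, *Lhx1os*, lies 124 bases away on the opposite strand in GENCODE vM21. Its counts were 20, 26 and 24 in controls and 26, 9 and 40 with LiCl, without a call (edgeR adjusted p = 0.80). The strand setting of the counting is not given in the sources used here, so reads of genes that overlap on opposite strands may not have been kept apart.

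The promoter windows of the 3 duct and vesicle genes are shown to compare the pair that fell or did not pass the test with the gene that rose. They are 250 bases before the start in GRCm38.p6, at chr19:44746351-44746600 on the plus strand for the most distal of 3 *Pax2* entries, chr2:24475600-24475849 on the minus strand for *Pax8*, and chr11:84525535-84525784 on the minus strand for *Lhx1*, each 5′ to 3′ with ACAAAG, the reverse complement of CTTTGT, in capitals:
Pax2: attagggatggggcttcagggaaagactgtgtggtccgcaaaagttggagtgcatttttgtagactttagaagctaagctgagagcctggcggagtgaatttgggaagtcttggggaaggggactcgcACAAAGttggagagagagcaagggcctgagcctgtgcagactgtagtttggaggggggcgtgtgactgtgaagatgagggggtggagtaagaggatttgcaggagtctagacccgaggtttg
Pax8: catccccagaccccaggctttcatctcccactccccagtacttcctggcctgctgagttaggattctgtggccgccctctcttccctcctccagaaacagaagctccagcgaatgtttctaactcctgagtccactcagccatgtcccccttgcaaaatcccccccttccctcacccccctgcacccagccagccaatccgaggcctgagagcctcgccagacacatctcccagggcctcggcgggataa
Lhx1: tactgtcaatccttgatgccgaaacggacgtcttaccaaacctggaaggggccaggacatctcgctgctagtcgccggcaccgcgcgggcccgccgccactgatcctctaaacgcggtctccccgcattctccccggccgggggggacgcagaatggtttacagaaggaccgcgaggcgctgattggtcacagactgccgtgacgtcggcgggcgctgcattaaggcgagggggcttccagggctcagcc
*Pax2*, which did not pass the test, holds the letters 122 bases before the start, and another of its entries holds them 190 bases before the start. The single entries of *Pax8*, which fell, and of *Lhx1*, which rose, hold none. In all, 3 of the 12 entries hold the TCF and LEF letters, the third being of *Sall1* with TCAAAG 153 bases before the start, against 27.6% of all windows. GC content was 52.8% in the *Pax2* window shown, 60.4% in that of *Pax8* and 64.8% in that of *Lhx1*, beside a median of 52.4% over all windows. The other *Pax2* entries had 60.8% and 72.8%.

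SALL1 and WT1 are zinc finger factors of the metanephric mesenchyme. SALL1 is needed for the mesenchyme to attract the ureteric bud and works with SIX2 in nephron progenitors. *Sall1* had 21.3, 18.3 and 22.5 CPM in controls and 20.4, 24.1 and 17.6 CPM with LiCl. The highest and the lowest value were both from LiCl samples, and the means were 20.7 CPM in both groups. The interval of its log2 fold change ran from -0.27 to 0.27 (edgeR adjusted p = 0.999).

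WT1 keeps the metanephric mesenchyme alive and is also a factor of podocytes, mesothelium and the gonad. *Wt1* had 15.2, 13.3 and 17.2 CPM in controls and 23.1, 27.2 and 21.4 CPM with LiCl. Every LiCl sample was above every control. The mean rose 1.57-fold, from 15.3 ± 1.95 to 23.9 ± 3.00 CPM (log2 fold change 0.65 ± 0.115 SE, 95% interval 0.39 to 0.91, edgeR adjusted p = 0.0018). Leaving out each sample in turn gave values from 0.55 to 0.75, all past the threshold, and without LiCl samples 1 and 3 the value was 0.84 (edgeR adjusted p = 0.0036). *Wt1os*, which lies on the opposite strand 18 bases from *Wt1* in GENCODE vM21, had 116, 119 and 145 counts in controls and 179, 192 and 156 counts with LiCl, and it rose too (log2 fold change 0.53, edgeR adjusted p = 0.015).

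**Figure D3:**
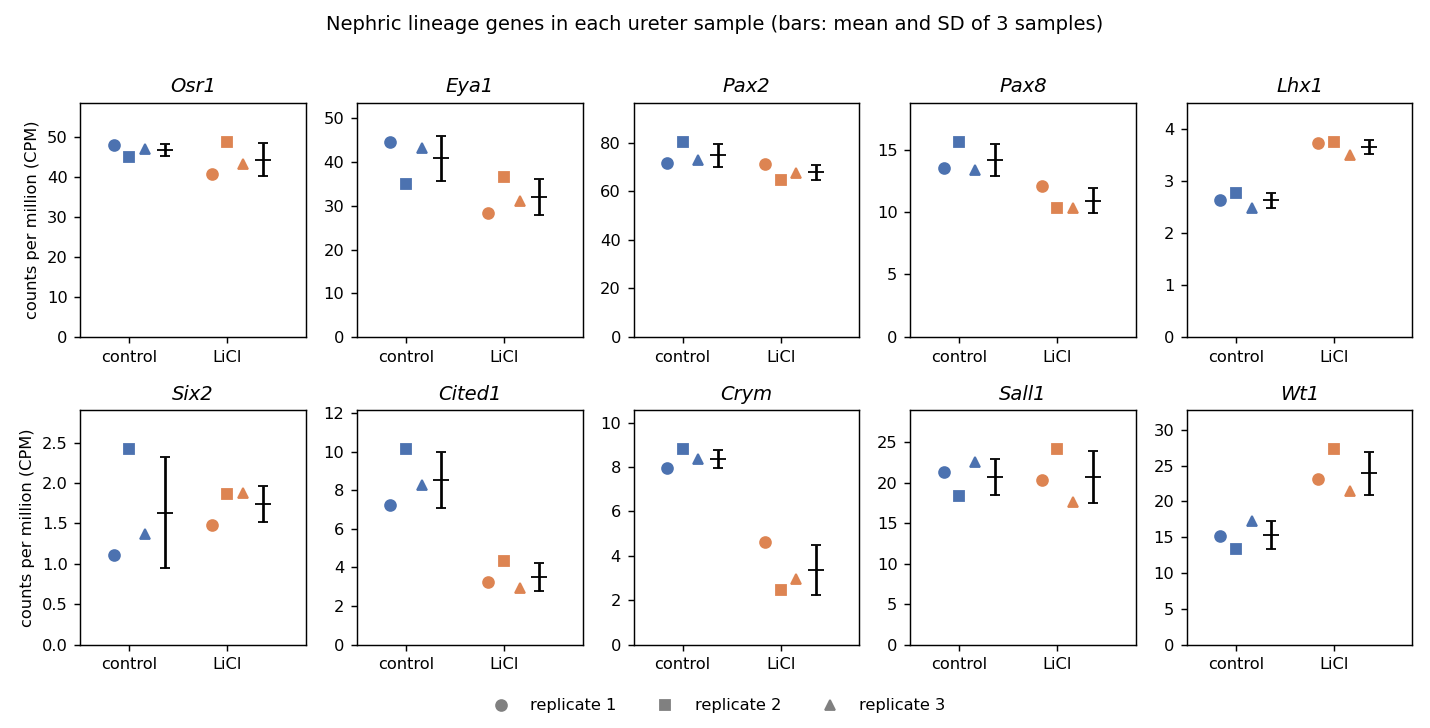
CPM of each gene (y axis, from 0) in the control (blue) and LiCl (orange) samples, with marker shapes for replicates 1 to 3 and bars for the mean and SD of 3 samples. *Cited1*, *Crym*, *Pax8*, *Wt1*, *Lhx1* and, by a narrow gap, *Pax2* have groups that do not overlap.

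Replicates of a group differed in which of these genes were high. In control sample 2, *Pax2*, *Pax8*, *Crym*, *Lhx1*, *Six2* and *Cited1* had their highest control value, and *Osr1*, *Eya1*, *Wt1* and *Sall1* their lowest. In LiCl sample 2, *Osr1*, *Eya1*, *Wt1* and *Sall1* had their highest value of that group, and *Pax2* and *Crym* their lowest. *Cited1* and *Lhx1* were highest in sample 2 of both groups, so the genes did not split into the same sets in each group. Over the 6 deviations from the group means on the log2 scale, the correlation was 0.96 between *Sall1* and *Wt1*, 0.93 between *Pax8* and *Pax2*, 0.89 between *Eya1* and *Osr1*, -0.98 between *Eya1* and *Pax2*, and -0.89 between *Osr1* and *Crym*. These correlations describe 6 values that share libraries. Gene length moved in the same samples. The 3756 tested genes with the longest models (at least 6741 bases) had a median deviation of -0.067 in control sample 2 and 0.029 in LiCl sample 2, and as many with the shortest (at most 2654 bases) had 0.056 and -0.014. The models implied by the deposited values were 7808 bases long for *Eya1* and 2066 for *Osr1*, which moved together, and 5409 for *Pax2*, 3391 for *Crym* and 6195 for *Wt1*. The deviations of *Eya1* (-0.22 in control sample 2 and 0.20 in LiCl sample 2) and of *Sall1* (-0.17 and 0.23) were wider than these medians. The part of gene length in this pattern was not tested.

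**Figure D4:**
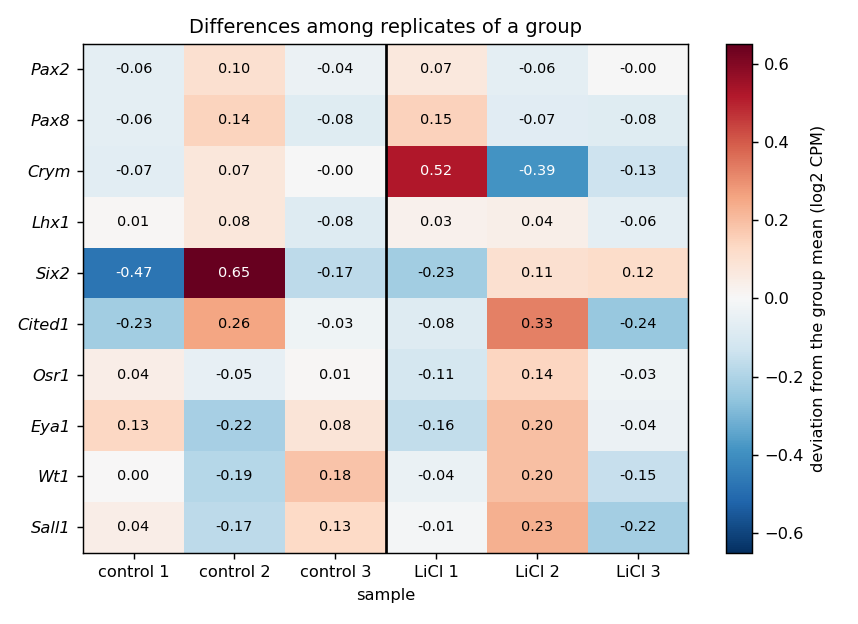
Deviation of each sample's log2 CPM from the mean of its group (colour and printed value) for the 10 genes (rows) in the 6 samples (columns). *Osr1*, *Eya1*, *Wt1* and *Sall1* are below their group mean in control sample 2 and above it in LiCl sample 2.

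Other genes listed for cap mesenchyme and nephron progenitors moved in both directions. Of 13 such genes, 12 were tested, 2 rose, 5 fell and 5 did not pass, with a median log2 fold change of -0.19 beside -0.01 over all genes. The counts of this list and those below stand beside 43.5% of all tested genes called, 21.1% higher and 22.4% lower. Control levels of those tested ran from *Dapl1* at 0.389 ± 0.114 to *Ncam1* at 237 ± 14.6 CPM, beside *Six2* at 1.63 ± 0.690 CPM. *Gdnf*, *Meox1* and *Dapl1*, the lowest of those tested in controls, did not pass. Neither did the more abundant *Itga8* (control mean 114 CPM, log2 fold change -0.06) and *Six4* (31.3 CPM, 0.08). Which cells these genes came from was not tested. *Tmem100*, a transmembrane protein, rose from 3.51 ± 0.738 to 10.5 ± 2.55 CPM (log2 fold change 1.59, edgeR adjusted p = 3.40e-04), while the patterning gene *Hoxd11* rose by 0.24 (edgeR adjusted p = 0.016). Among those that fell were *Hoxa11*, its partner in kidney patterning, from 39.6 ± 3.65 to 24.9 ± 2.90 CPM (-0.67, edgeR adjusted p = 5.43e-04), the matrix proteoglycan gene *Spock2* (-0.41) and the adhesion gene *Ncam1* (-0.31). *Uncx* had 6, 9 and 0 counts in controls and 34, 8 and 0 with LiCl and was not tested. Without LiCl sample 2, 1 gene of the list rose, and without LiCl samples 1 and 3 together 3 fell.

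Genes of nephron induction and the renal vesicle, the step in which *Lhx1* takes part, also moved in both directions. Of 13 genes 9 were tested, 1 rose, 2 fell and 6 did not pass, where 43.5% of all tested genes were called. *Wnt4*, the signal that drives the mesenchyme to become epithelial, had 36.8 ± 4.02 CPM in controls and 43.0 ± 1.13 CPM with LiCl (log2 fold change 0.22, edgeR adjusted p = 0.043). That call was lost when any sample other than control sample 2 was left out. *Irx3*, a factor of the intermediate nephron, fell from 4.51 ± 0.948 to 1.94 ± 0.137 CPM (-1.22, edgeR adjusted p = 8.83e-04), and *Cdh6*, a cadherin of the proximal part, fell as well (-0.59, edgeR adjusted p = 0.010). *Fgf8*, a growth factor of the renal vesicle, had 0, 1 and 0 counts in controls and 8, 3 and 4 counts with LiCl and was not tested. Of 8 genes of podocytes, a cell type in which WT1 stays active, 6 were tested: *Ptpro* rose (0.46), *Synpo* (-0.67) and *Kirrel1* (-0.24) fell, and 3 did not pass. Without control sample 3, 1 podocyte gene fell. Without LiCl samples 1 and 3 together, the calls of *Wnt4* and *Ptpro* were lost, and 1 gene of each of these lists fell.

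The ureteric bud genes beside *Pax2*, *Pax8* and *Lhx1* moved in both directions. Of 14 genes of the nephric duct and ureteric bud, all tested, 2 rose, 5 fell and 7 did not pass. *Wnt6*, a bud ligand, rose from 4.85 ± 0.210 to 15.8 ± 1.12 CPM (log2 fold change 1.70, edgeR adjusted p = 2.62e-06), and the ETS factor gene *Etv4* rose (0.48). *Elf5*, an epithelial ETS factor gene, fell from 18.4 ± 2.37 to 7.76 ± 1.93 CPM (-1.24, edgeR adjusted p = 3.98e-04). *Ret*, the GDNF receptor, fell from 51.4 ± 4.96 to 28.0 ± 4.74 CPM (-0.88, edgeR adjusted p = 3.84e-04), and *Wnt11*, a ligand of the bud tip, fell (-0.70). *Gata3*, like *Pax2* a factor of the nephric duct, fell slightly (-0.18, edgeR adjusted p = 0.017). The count that fell was 3 without control sample 1, without LiCl sample 3, or without LiCl samples 1 and 3.

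Close relatives of the 10 genes were counted as well, since families such as PAX, CITED and SALL overlap in function. Of 32 relatives 20 were tested, 6 rose, 5 fell and 9 did not pass (median log2 fold change 0.04). *Cited2*, a coactivator related to *Cited1*, fell from 67.9 ± 4.18 to 32.2 ± 1.81 CPM (-1.08, edgeR adjusted p = 3.52e-06), so both paralogs were lower. *Osr2* rose from 7.56 ± 0.848 to 16.2 ± 2.28 CPM (1.10, edgeR adjusted p = 1.60e-04), whereas *Osr1* did not pass the test. The interval of *Osr1* (-0.23 to 0.08) did not reach the value of *Osr2*. *Pax3*, which marks muscle precursors and neural crest, had 2, 3 and 2 counts in controls and 25, 23 and 24 counts with LiCl. It passed the filter on low counts through the LiCl samples in which it was high, so no test of it is given. *Pax3* is included in the 6 that rose and in the median, and both are to be read with that limit. *Dach1* (0.26) and *Dach2* (0.70), partners of EYA proteins, rose, while *Six5* (-0.50) and *Sall4* (-0.55) fell. Without LiCl samples 1 and 3 together, 2 relatives fell.

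Markers of other tissues that an E12.5 ureter could carry were read beside these genes. Renal stroma genes gave 1 that rose, *Ntn1* (0.43), and 2 that fell, *Tcf21* (-0.28) and *Penk*, from 98.7 ± 6.27 to 42.1 ± 0.844 CPM (-1.23), of 4 tested. The call of *Ntn1* was lost without control sample 2, control sample 3 or LiCl sample 3, and without LiCl samples 1 and 3 together. Of 8 mature tubule genes, 5 were too low to be tested: among them, *Umod* and *Slc34a1* had no counts in any sample, which allows up to 0.105 CPM each in the smallest library, covering counting error only. Of the 3 tubule genes tested, *Aqp1* (-1.59) and *Cubn* (-1.25) fell. *Lrp2*, the most abundant of them at 36.5 ± 8.81 CPM in controls, did not pass the test (-0.50, edgeR adjusted p = 0.086). Whether these 3 genes came from kidney cells was not tested. Mesothelium genes, beside the rise of *Wt1*, gave 3 that fell (*Krt7* at -1.63, *Msln* at -1.22 and *Upk3b* at -0.65) and 1 that rose (*Bnc1* at 1.26), while *Lrrn4* (0.31) did not pass the test and *Muc16* was too low to be tested. Their summed level was 128 to 154 CPM in controls and 48.4 to 56.0 CPM with LiCl, but it was mostly that of *Krt7*, a keratin also made by urothelium, at 128 ± 12.6 CPM in controls and 41.5 ± 2.37 CPM with LiCl. The rise of *Bnc1* was lost without control sample 1, control sample 2, LiCl sample 1 or LiCl sample 2, and without LiCl samples 1 and 3 together, when 2 genes fell.

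Gonad genes summed to 9.60 to 10.4 CPM in controls and 14.6 to 17.5 CPM with LiCl, with *Star*, a steroid-producing cell gene, rising from 7.53 ± 0.231 to 13.4 ± 1.28 CPM (0.83, edgeR adjusted p = 2.05e-04). The sum was mostly that of *Star*. *Nr5a1*, which defines somatic gonad cells, was near 0, at 0.044 ± 0.018 CPM in controls and 0.035 ± 0.036 CPM with LiCl. *Gata4*, on the same list, had 15, 2 and 23 counts in controls and 41, 2 and 20 counts with LiCl. It was thus lowest in sample 2 of both groups. Of the 9 gonad genes 3 were tested: 1 rose, and *Amh* (-0.09) and *Gata4* (0.68) did not pass. Cells of the gonad as a source of *Wt1* were not tested beyond these values. Of the 12 skeletal muscle genes 8 passed the filter on low counts. *Pax3* did so through the LiCl samples in which it was high, and all but *Tnnt3* had at most 30 counts in any control. No calls or fold changes are therefore given for this list. The muscle genes summed highest in LiCl sample 3 and lowest in sample 2. Among the 10 kidney and nephric genes, *Six2* was the one with its highest LiCl value in sample 3, and it was lowest in sample 1, while *Crym* and *Pax2* were lowest in sample 2.

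The tissues of the ureter proper were read with the same lists. Of 11 UM genes 2 rose, *Tbx2* (0.27) and *Tbx3* (0.13), 5 fell, with *Tbx18* (-0.58), *Tshz2* (-0.29) and *Sox9* (-0.25) the furthest, and 4 did not pass. Without control sample 2, control sample 3, LiCl sample 2 or LiCl sample 3, 1 UM gene rose, and without LiCl samples 1 and 3 together 1 rose and 2 fell. Of 11 UE genes 9 fell, among them the uroplakin genes *Upk1b* (-1.95), *Upk2* (-1.67) and *Upk3a* (-1.42), 1 rose (*Epcam* at 0.37) and 1 did not pass. Without LiCl samples 1 and 3, 8 UE genes fell and 2 rose. The summed UE level was 1116 to 1419 CPM in controls and 825 to 859 CPM with LiCl. *Pax2*, *Pax8*, *Lhx1* and *Gata3*, which are also active in epithelium, stand beside this fall, and its part in their values was not tested.

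For each of the genes that were called and whose groups did not overlap, the tested genes of like abundance with the most similar profile over the 6 samples were named. For *Cited1* these were *Bmyc* (Pearson r of log2 CPM 0.998), *Reep2* and *Mad2l2*, among 6344 genes compared. For *Crym* they were *Tlcd1* (0.997), *Echdc2* and *Dennd2d*, and for *Pax8* they were *Pex2* (0.999), *Serping1* and *Fam229b*. For *Lhx1* they were *Tmem38b* (0.997), *Gm14091* and *Rnf223*. For *Wt1* they were *Trip4* (0.999), *Wt1os* (0.994) and *Osbpl11*. None of these lists held another of the 10 genes. With 6 samples and 5842 to 8644 genes compared per profile, such values are a description of profiles and carry no p.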

How the data were processed

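RNA-Seq of 6 samples of E12.5 ureter explants (3 control, 3 LiCl) was analysed, with groups and replicate numbers from the labels. The authors deposited raw counts per Ensembl gene, without normalization, made on GRCm39 with featureCounts. The aligner is HISAT2 in the study's methods, whereas the submitters' processing notes list STAR 2.7, fastp 0.23, featureCounts 2.0 and DESeq2 1.40. The annotation release and the strand setting are not given in the sources used here. Per-sample FPKM values were deposited too, computed by the authors or their sequencing provider. Lengths recomputed from counts and FPKM with DESeq2's size factors came out whole within 0.01 base for 100% of genes above 50 counts, so both hold the same reads.

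Symbols came from GENCODE vM21 (GRCm38) for 52073 of 56748 identifiers, and 1 older symbol through RefSeq synonyms. Coordinates of whole genes are left out, since these tables and the counts use different builds. Those of promoter windows and the distances to antisense genes are given in the older build, GRCm38. Promoters are from RefSeq (GRCm38.p6), with 6 of the 10 genes matched; the 50 bases after the start were left out.

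The test was that of edgeR 4.0.16 under R 4.3.3 (filterByExpr, TMM factors 0.982 to 1.025, quasi-likelihood F test, Benjamini-Hochberg over 18188 genes, common dispersion 0.00665). Calls used an adjusted p under 0.05, with a log2 fold change beyond 1 in either direction as the fold minimum. CPM are TMM-scaled, and errors are SD over 3 samples. Alternatives were DESeq2 1.42.0, RLE factors, scaling by library size, a minimum of 10 counts in each sample, no low-count filter, a replicate block, each sample left out, LiCl samples 1 and 3 left out together, and limma 3.58.1 on log2(FPKM + 1) or log2(FPKM + 0.1) where the mean FPKM reached 0.5, and on log2(FPKM + 1) for every gene. The scripts were tested on simulated data.

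The 10 genes and the lists were chosen with earlier results of these data known. Named genes were the 10, in each list the 3 most changed called genes per direction and the most abundant gene, and the 3 genes most similar in profile to each called gene with groups apart, within 4-fold in mean CPM; 1 gene is not reported here. *Gdnf*, *Uncx*, *Fgf8*, *Nr5a1*, *Umod*, *Slc34a1*, *Amh*, *Gata4*, *Itga8* and *Six4* were added after their values were seen, as were the antisense neighbours.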

Additional observations from a re-analysis of the deposited data

How the results depend on the processing

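Over 16 alternatives, 140 of the 160 values for the 10 genes kept their side of the threshold, 20 lost the call, all for *Pax8*, *Lhx1* or *Eya1*, and none gained one. The 96 values of the 6 called genes kept their direction, whereas 14 of the 64 values of the other genes had the other sign (11 for *Sall1*, 2 for *Six2* and 1 for *Osr1*), without a call. *Cited1*, *Crym* and *Wt1* were called under all 16. The 2 genes that rose became 1 with DESeq2 (*Lhx1*, adjusted p = 0.066), with LiCl samples 1 and 3 left out together, and with limma on log2(FPKM + 1) without filter, and ranged from 1 to 2 when each sample was left out. The 4 that fell became 2 with LiCl samples 1 and 3 left out and with limma without filter, and ranged from 2 to 4 when each sample was left out. The 2 past the fold minimum became 1 with LiCl samples 1 and 3 left out, and 0 with limma on log2(FPKM + 1), with or without filter, since that pseudocount shrinks low values (*Cited1* -0.96, *Crym* -0.80). Over all genes, 3844 rose and 4071 fell, and 2014 and 2117 with LiCl samples 1 and 3 left out, where the lone LiCl sample is assumed to vary like the controls. Of 416 counts over the gene lists, 60 moved by over 1.5 times.

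With the replicate number as a block, 3379 genes rose and 3602 fell, and 2 and 3 of the 10 genes, *Eya1* losing its call (adjusted p = 0.073). Over the more abundant tested genes, same-numbered samples did not deviate together (r = 0.017, -0.15 and 0.12). The least abundant genes, among them *Gata4* and *Uncx*, were left out of this correlation. Whether same-numbered samples shared a litter or batch cannot be told from this. Depth limits *Six2* most: 32 to 75 counts per sample.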
